A study of Rattus norvegicus with 320 samples.

Results

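The miRNAs miR-219a and miR-338 are described here across 11 organs of Fischer 344 rats. The members are the rows of the count table that are named miR-219a or miR-338, with any suffix for the arm or the gene copy. The rule uses names alone and found 5 of the 616 miRNAs in the table, namely rno-miR-219a-5p, rno-miR-219a-2-3p, rno-miR-219a-1-3p, rno-miR-338-3p and rno-miR-338-5p, written below without the species prefix. Small RNA libraries were made from whole organs of untreated, inbred rats of both sexes at 2, 6, 21 and 104 weeks of age, with 4 rats of each sex at each age and 320 libraries in all. Brain, heart, kidney, liver, lung, spleen, thymus, adrenal gland and skeletal muscle were taken from females and males, uterus from females and testis from males. No genotype, transgene or treatment separates the groups, so organ, age and sex are the only factors compared.

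Oligodendrocytes are the cells of the central nervous system that wrap axons in myelin, and in rodents most myelin is laid down in the weeks after birth. miR-219 and miR-338 are known from rodents as miRNAs of this lineage that rise when precursor cells stop dividing and become myelinating cells, where they repress factors that hold the precursors in the dividing state. A miRNA is cut from a hairpin precursor with a 5p and a 3p arm, and it finds its targets mainly through its seed, which is made of bases 2 to 8.

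The mature sequences are shown because the arms and copies are close enough in name to be confused, while none of them shares its seed with another. They are written 5′ to 3′ as the count table holds them, with the seed in capitals.
miR-219a-5p: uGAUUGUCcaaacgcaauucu
miR-219a-2-3p: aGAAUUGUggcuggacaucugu
miR-219a-1-3p: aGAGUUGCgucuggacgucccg
miR-338-3p: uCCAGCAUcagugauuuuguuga
miR-338-5p: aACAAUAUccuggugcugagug
All 5 sequences were the same as the RefSeq entries of the same name, and no other miRNA of the table carried any of these seeds. The arms miR-219a-2-3p and miR-219a-1-3p come from different genes and differ at 7 of 22 positions.

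In RefSeq (build GRCr8, whereas the reads were aligned on an older build), miR-219a-5p is listed at chr3:33516561-33516581 and miR-219a-2-3p at chr3:33516517-33516538, both on the minus strand in the hairpin of Mir219-2, which overlaps the gene Cercam. miR-219a-1-3p is at chr20:4831641-4831662 on the plus strand in Mir219a1, outside coding genes and with Ring1 as the nearest. The hairpin of Mir219a1 holds the sequence of miR-219a-5p as well, so reads of miR-219a-5p can come from either copy, while each 3p arm belongs to 1 copy. miR-338-3p at chr10:105796345-105796367 and miR-338-5p at chr10:105796381-105796402 lie on the minus strand in Mir338, which overlaps Aatk, a kinase gene expressed in the nervous system. On the opposite strands, miR-219b overlaps miR-219a-2-3p by 20 bases and miR-3065-5p overlaps miR-338-3p by 20 bases.
miR-219b: aGAUGUCCagccacaauucucg
miR-3065-5p: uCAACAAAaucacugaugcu
These opposite-strand miRNAs were scarce in brain, with a median of 0.419 CPM for miR-219b and 0.942 CPM for miR-3065-5p over 31 brain libraries. CPM are counts per 1000000 counts of a library.

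Totals over all libraries ran from 315550 counts in a liver to 10571766 in a uterus. Replicate 3 of the male brains at week 6 and replicate 4 of the female spleens at week 104 were left out, as the study did, and 318 libraries were used. The 31 brain libraries held 1164462 to 4958803 counts. All 12 miRNAs of a neuron list were counted in every age and sex group of brain, and their summed level was 76809 to 148414 CPM. This sum was not computed for other organs, so it does not by itself identify the tissue. Brain is a mixture of cells, so that fewer cells of a type and less RNA per cell cannot be told apart in any of the comparisons.

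Brain held far more miR-219a-2-3p than any other organ at every age. Over the 31 brain libraries the lowest level was 727 CPM, the median 1281 CPM and the highest 1709 CPM. The next organ by median was kidney, with 2.18 CPM and a range of 0 to 10.1 CPM over 32 libraries. The highest single library outside brain was an adrenal gland with 25.2 CPM. All brain libraries therefore lay above all 287 others. Of these 287, 81 had no count and 79 had more than 3 counts. miR-219a-5p ran from 154 to 588 CPM in brain with a median of 280.5 CPM. Its levels elsewhere were low but not absent, with medians of 7.27 CPM in spleen, 6.10 CPM in thymus, 5.34 CPM in liver and 4.71 CPM in adrenal gland and the highest library at 29.2 CPM, in spleen.

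miR-338-3p was spread more widely. In brain the lowest library had 368 CPM, the median 3840.3 CPM and the highest 6646 CPM. It was counted in all 287 libraries outside brain, with medians of 294 CPM in testis, 193 CPM in skeletal muscle, 116 CPM in heart, 102 CPM in spleen and 97.5 CPM in lung, down to 16.5 CPM in kidney. At week 2 the brain range of 368 to 1205 CPM overlapped that of testis, 241 to 445 CPM, and that of skeletal muscle, 177 to 407 CPM. At weeks 6, 21 and 104 the brain libraries lay above all others. miR-338-5p, the other arm of the same hairpin, reached 139.5 to 464 CPM in brain with a median of 321 CPM. Its next medians were 23.6 CPM in testis, 13.9 CPM in spleen and 11.2 CPM in skeletal muscle.

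miR-219a-1-3p had another pattern, with its highest median in adrenal gland. Adrenal libraries held 8.04 to 25.2 CPM with a median of 13.6 CPM, thymus followed with 8.14 CPM and spleen with 5.20 CPM, and brain came after them with 5.17 CPM and a range of 1.62 to 12.9 CPM. At weeks 6, 21 and 104 the adrenal range did not overlap that of the organ next in order. Down the order of organs most neighbours could not be separated: over the 4 ages the ranges overlapped in 36 of 40 neighbouring pairs for miR-219a-5p, miR-219a-2-3p, miR-219a-1-3p and miR-338-5p, and in 31 of 40 pairs for miR-338-3p.

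**Figure D1:**
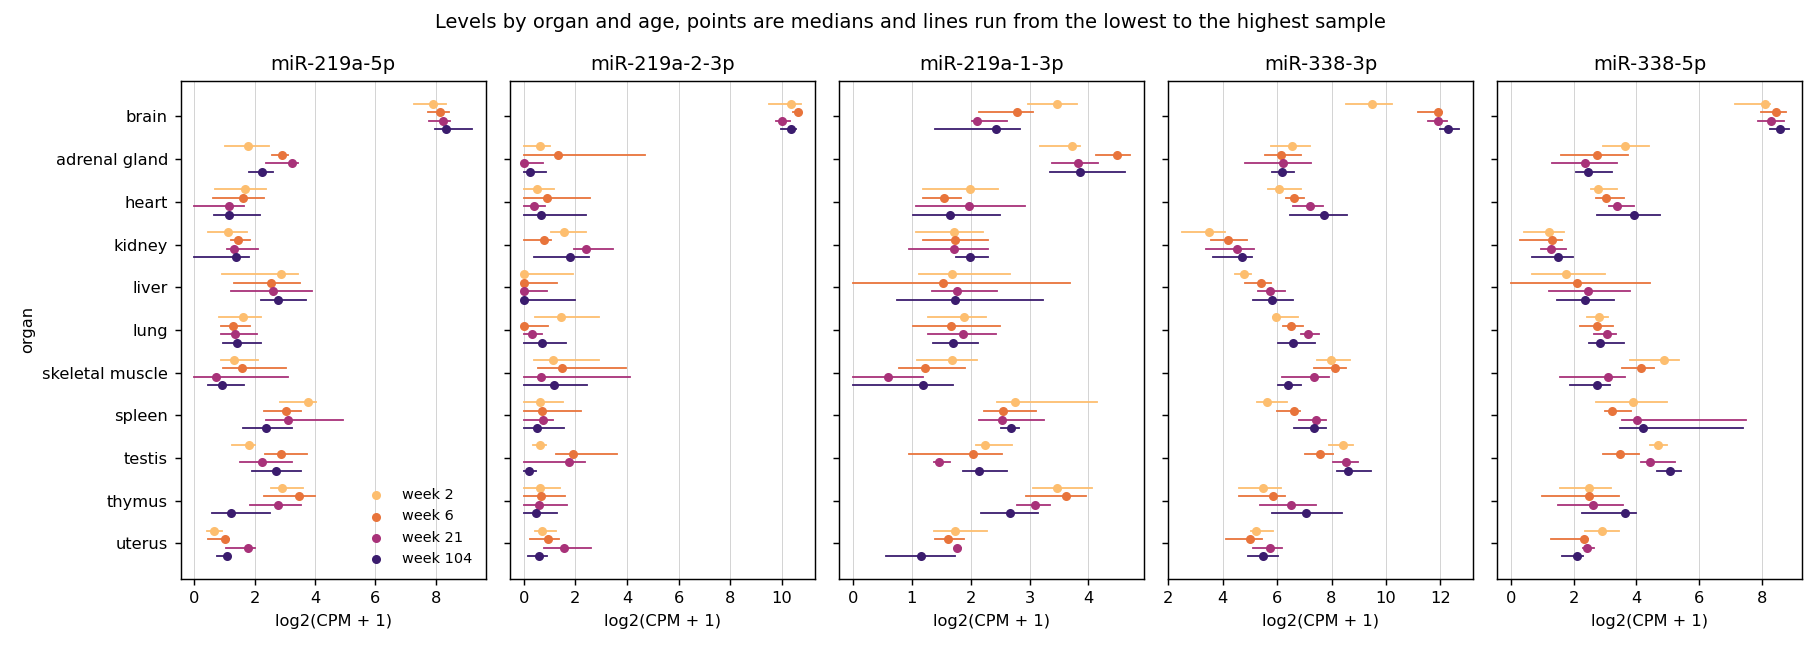
Levels of the 5 miRNAs as log2(CPM + 1) on the horizontal axes, by organ on the vertical axis and by age in colour, where points are medians of the libraries and lines run from the lowest to the highest library. Brain stands apart for miR-219a-5p, miR-219a-2-3p and miR-338-5p, while miR-338-3p overlaps with testis and skeletal muscle at week 2 and miR-219a-1-3p is highest in adrenal gland.

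Brain was compared with each of the 10 other organs at each of the 4 ages, with edgeR's quasi-likelihood test and Benjamini-Hochberg adjustment over all 616 miRNAs. Enrichment in brain asked for a difference of 4-fold or more and an adjusted p under 0.05 in each of the 40 comparisons. This held for 49 miRNAs, 7.95% of the table. The table includes candidate miRNAs that the study kept for being specific to an organ. Of the 5 members, miR-219a-5p, miR-219a-2-3p and miR-338-5p were called. The smallest difference of miR-219a-5p was a log2 fold change of 3.54 (SE 0.19) over thymus at week 6. For miR-219a-2-3p, 16 comparisons were against organs in which no library had more than 3 counts, and there brain was at least 318-fold higher, set against 3 counts per library. In the other comparisons its smallest difference was a log2 fold change of 6.01 (SE 0.41) over kidney at week 21. miR-338-5p was close to the limit with 2.05 (SE 0.40) over testis at week 104, and it fell under 4-fold with DESeq2 (1.89), with a filter at a mean count of 10 (1.51), and without replicates 1, 2 or 3, where the values were 1.86, 1.76 and 1.94.

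miR-338-3p was at least 4-fold higher in brain in 37 of 40 comparisons. The remaining 3 were all at week 2. There its log2 fold change was 0.41 (SE 0.21, edgeR adjusted p = 0.0691) over skeletal muscle, 0.86 (SE 0.27, edgeR adjusted p = 0.00274) over testis and 1.96 (SE 0.22, edgeR adjusted p = 4.94e-13) over adrenal gland. The direction against skeletal muscle turned with the filter at a mean count of 10, to -0.24, and without replicate 2, to -0.04. miR-219a-1-3p was called lower in brain, at any fold, in 16 of the 40 comparisons. Among them were all 4 ages against adrenal gland, at log2 fold changes of -3.31 to -1.18. All 4 against thymus were too, at -2.22 to -1.03. At week 2 brain was called higher than heart (1.26), lung (1.26), skeletal muscle (1.23), liver (1.14), testis (1.04), kidney (0.96) and uterus (0.77). At week 21 it was called higher than skeletal muscle, where no library had more than 3 counts. Brain was at least 4-fold higher in miR-219a-1-3p in 0 comparisons.

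The 3p arms of both gene copies made up different shares of the counts from organ to organ. Summed over libraries, miR-219a-2-3p made up 99.6% of the counts of both 3p arms in brain (95% Wilson interval 99.5 to 99.6), 9.24% in adrenal gland (8.06 to 10.6) and 7.47% in thymus (5.67 to 9.80). These intervals cover counting error only. The single brain libraries ran from 98.3% to 99.9%, so that even the lowest stood far from the median adrenal library at 2.17%. Adrenal libraries with at least 10 counts of both arms ran from 0 to 53.4%, and without the highest of them the adrenal share was 5.88%. Kidney, with 51.7% (48.0 to 55.3), and skeletal muscle, with 60.4% (54.4 to 66.1), lay between. Their counts of miR-219a-2-3p and miR-219a-1-3p were 369 and 345 in kidney and 160 and 105 in skeletal muscle. Single kidney libraries with at least 10 counts of both arms ran from 9.09% to 75%. The remaining organs ran from 10.4% in liver to 36.8% in uterus. The ratio of miR-219a-5p to miR-219a-2-3p counts was 0.220 in brain, 3.48 in adrenal gland, 8.85 in thymus, 11.2 in spleen and 16.8 in liver, where miR-219a-2-3p had 11 counts in all. Without female replicate 3 at week 6, which held 78 of the 191 adrenal counts of miR-219a-2-3p, the adrenal ratio was 5.71.

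**Figure D2:**
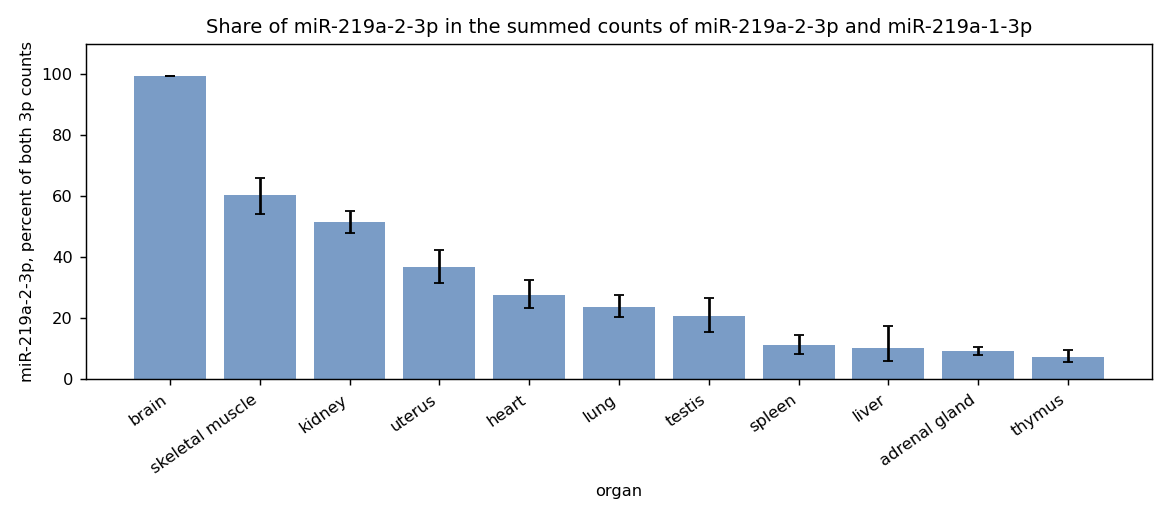
Share of miR-219a-2-3p in the summed counts of miR-219a-2-3p and miR-219a-1-3p on the vertical axis, in percent, for each organ, with 95% Wilson intervals that cover counting error only. Brain is at 99.6%, and adrenal gland and thymus are at 9.24% and 7.47%.

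Within brain, miR-338-3p changed most with age. At week 2 its lowest, median and highest levels were 368, 735 and 1205 CPM over 8 libraries. At week 6 they were 2336, 3840.3 and 4248 CPM over 7 libraries, at week 21 they were 3020.5, 3814 and 4809.7 CPM over 8, and at week 104 they were 4092, 4923 and 6646 CPM over 8. The week 2 libraries all lay below all later ones, and the later ages overlapped. miR-338-3p had a median rank of 103 among the miRNAs of a brain library at week 2 and of 39 at week 6.

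miR-338-5p rose less than its partner arm. It had 139.5, 273 and 305 CPM as lowest, median and highest at week 2, then 252, 353 and 439.8 CPM at week 6, 235, 313 and 421 CPM at week 21 and 305, 388 and 464 CPM at week 104. Neighbouring ages overlapped throughout.

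The arms of miR-219a were flatter. miR-219a-2-3p had 727, 1324 and 1704 CPM at week 2, 1379, 1581 and 1709 CPM at week 6, 870.2, 1028 and 1281 CPM at week 21 and 991, 1317 and 1494 CPM at week 104, again as lowest, median and highest. Its week 21 libraries all lay below those of week 6, and other neighbouring ages overlapped. The week 6 brain library that was left out held 735 CPM of miR-219a-2-3p, so the separation of weeks 6 and 21 holds only without it. miR-219a-5p had medians of 238, 280.5, 299 and 326 CPM from week 2 to week 104, with overlapping ranges. miR-219a-1-3p went the other way, with medians of 10.1, 5.92, 3.32 and 4.38 CPM.

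**Figure D3:**
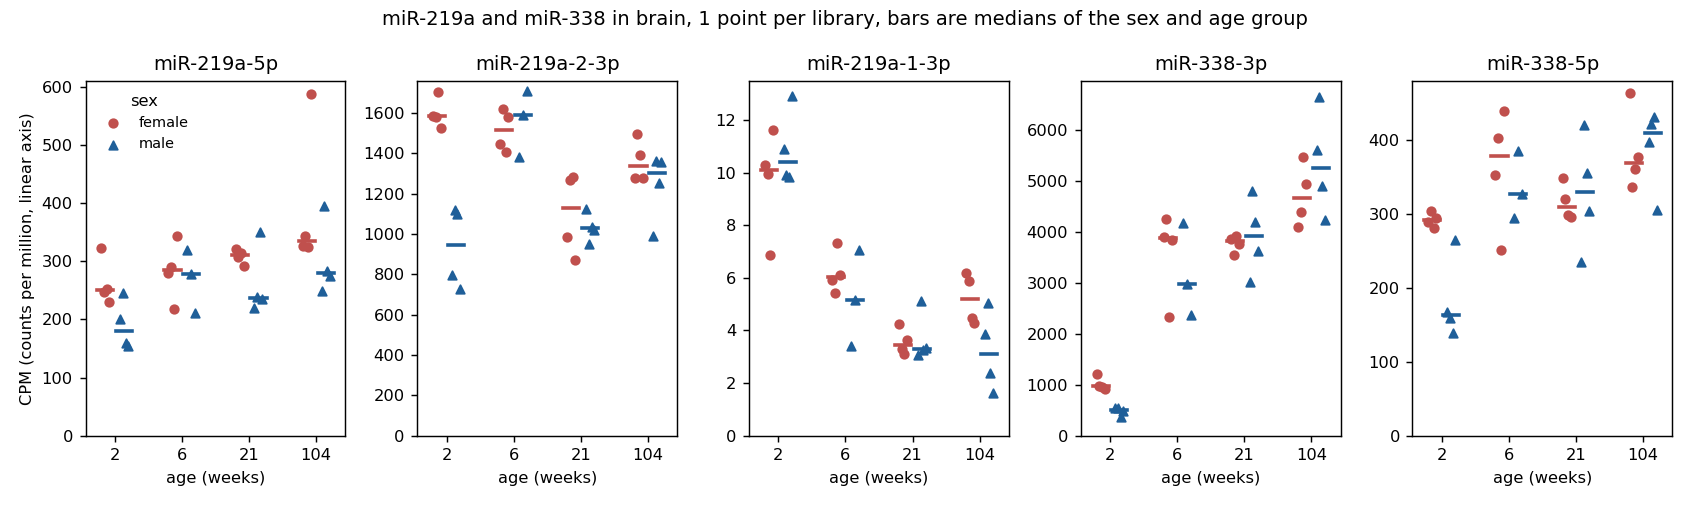
CPM in each brain library on linear vertical axes against age in weeks, with females as circles, males as triangles and bars at the median of each sex and age group. miR-338-3p is at 368 to 1205 CPM at week 2 and at 2336 CPM or above afterwards, and the male libraries of week 2 lie below the female ones for miR-338-3p, miR-338-5p and miR-219a-2-3p.

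Neighbouring ages were compared in brain with the same edgeR test, as the mean of both sexes. From week 2 to week 6, 145 of 616 miRNAs rose (23.5%) and 119 fell (19.3%). All 5 members were called, 4 upwards and 1 downwards. The log2 fold change was 2.54 for miR-338-3p (SE 0.13, edgeR adjusted p = 3.7e-15), 0.86 for miR-338-5p (SE 0.13, edgeR adjusted p = 1.8e-06), 0.61 for miR-219a-2-3p (SE 0.11, edgeR adjusted p = 3.6e-05), 0.58 for miR-219a-5p (SE 0.11, edgeR adjusted p = 9.5e-05) and -0.58 for miR-219a-1-3p (SE 0.19, edgeR adjusted p = 0.0146). With scaling to library size only, 82 miRNAs rose and 197 fell, the median over all miRNAs moved from 0.00 to -0.25, and miR-219a-5p at 0.30 was no longer called. miR-219a-1-3p at -0.45 was not called without replicate 1 (adjusted p = 0.176).

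Sequencing lanes were unevenly filled, with week 6 brains in lanes 7 and 8 only. By the study's sample list, female brain replicate 2 at week 6 carries a lane 8 library name of skeletal muscle. Female skeletal muscle replicate 2 at week 6 carries a lane 1 library name of brain. The organ labels of the study were used for both. With the lane as a covariate, miR-338-3p rose by 2.43 (edgeR adjusted p = 5.2e-08), miR-338-5p by 0.94 and miR-219a-5p by 0.58, all called, while miR-219a-2-3p at 0.48 (adjusted p = 0.149) and miR-219a-1-3p at -0.19 (adjusted p = 0.825) were not. Lane 7 is the one that holds brains of both ages, and in it the single week 2 library had 368 CPM of miR-338-3p and both week 6 libraries had 2336 and 2375 CPM. In lanes 1, 2, 3, 4 and 6, which hold brains of week 2 and of weeks 21 or 104, the week 2 libraries were at 486 to 1205 CPM and the older ones at 3626 to 6646 CPM.

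From week 6 to week 21, 53 miRNAs rose (8.6%) and 61 fell (9.9%), or 30 and 118 with library size only, which moved the median over all miRNAs from 0.04 to -0.12. Among the members, miR-338-3p rose by 0.36 (SE 0.12, edgeR adjusted p = 0.0384) and miR-219a-2-3p fell by 0.36 (SE 0.11, edgeR adjusted p = 0.0218). Neither was called with the lane as a covariate, and with it 0 miRNAs rose and 1 fell in the whole table. The miR-338-3p call was also lost with library size only and without replicate 2, 3 or 4 (0.36, 0.28 and 0.28). The miR-219a-2-3p call was also lost without replicate 2 or 4 (-0.34 and -0.28) and with all 320 samples. From week 21 to week 104, 3 miRNAs rose (0.487%) and 15 fell (2.44%), or 9 and 14 with library size only, and no member was called by edgeR. At an unadjusted p under 0.05, 104 miRNAs passed at this step, among them miR-338-3p, miR-219a-2-3p and miR-219a-5p, with log2 fold changes of 0.36, 0.26 and 0.24, and miR-338-3p was called by DESeq2 (0.35, adjusted p = 0.0406). miR-219a-5p reached 588 CPM in replicate 4 of the week 104 females, the brain library with the fewest counts, and its change was 0.15 without that library. By the study's account the same library had a low share of reads on miRNAs, and the part of this in its values was not tested. Without it miR-338-3p changed by 0.37 and miR-219a-2-3p by 0.29, still not called.

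**Figure D4:**
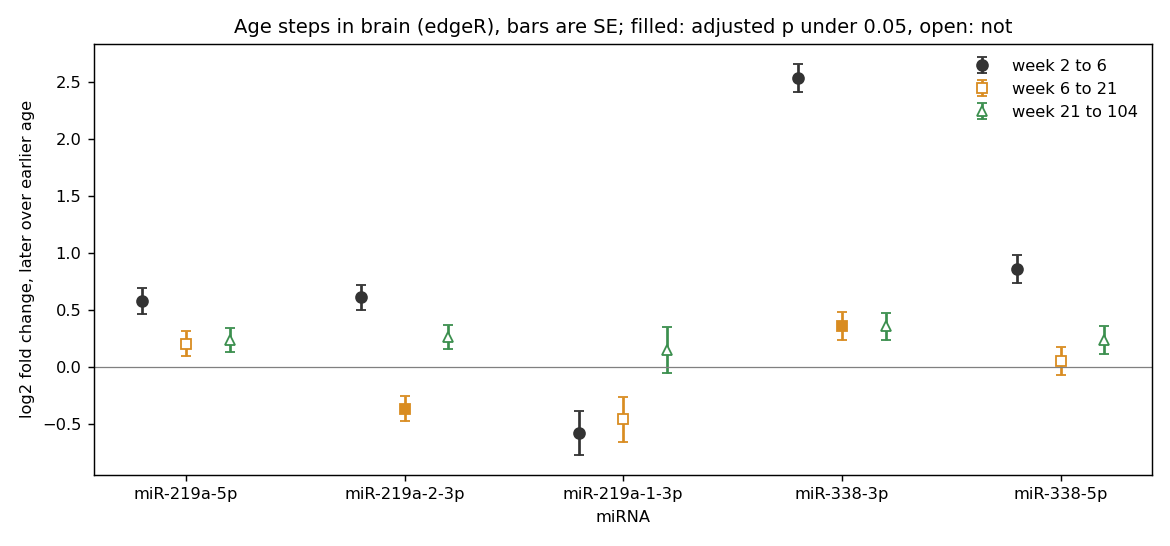
Log2 fold change in brain (vertical axis) between neighbouring ages for each miRNA (horizontal axis), from edgeR with both sexes averaged and SE as bars, where filled symbols have an adjusted p under 0.05. miR-338-3p at 2.54 from week 2 to week 6 stands above all other steps.

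Ratios of counts within a library do not depend on how libraries are scaled. The ratio of miR-338-3p to miR-219a-2-3p had a lowest, median and highest value of 0.335, 0.612 and 0.760 at week 2, 1.39, 2.43 and 3.02 at week 6, 2.69, 3.74 and 5.06 at week 21 and 2.94, 3.89 and 5.65 at week 104. Thus miR-219a-2-3p was the more counted of this pair in every week 2 library and miR-338-3p in every later one. The mean log2 ratio rose by 1.92 from week 2 to week 6 (exact permutation test, two-sided, p = 0.0001554, the smallest it can give, adjusted over 9 comparisons p = 0.000699) and by 0.73 from week 6 to week 21 (exact p = 0.00202, adjusted p = 0.00606), where the call was lost without replicate 4 (0.60, adjusted p = 0.0731). The difference from week 21 to week 104 was 0.09 (exact p = 0.561, adjusted p = 0.721).

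The arms of miR-338 shifted as well. The median ratio of miR-338-3p to miR-338-5p was 3.21 at week 2, 9.27 at week 6, 11.8 at week 21 and 13.5 at week 104, and the week 2 range of 1.84 to 4.17 did not reach the week 6 range of 7.25 to 14.2. The log2 ratio rose by 1.65 from week 2 to week 6 (exact permutation p = 0.0001554, adjusted p = 0.000699) and by 0.32 from week 6 to week 21 (exact permutation p = 0.0230, adjusted p = 0.0414), where the call was lost without replicate 2, 3 or 4. This ratio was added after the levels had been seen. The ratio of miR-219a-5p to miR-219a-2-3p had medians of 0.180, 0.179, 0.248 and 0.242 from week 2 to week 104. Its log2 value rose by 0.57 from week 6 to week 21 (exact permutation p = 0.00280, adjusted p = 0.00629), and the call was lost without replicate 2 (0.60, adjusted p = 0.0584).

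**Figure D5:**
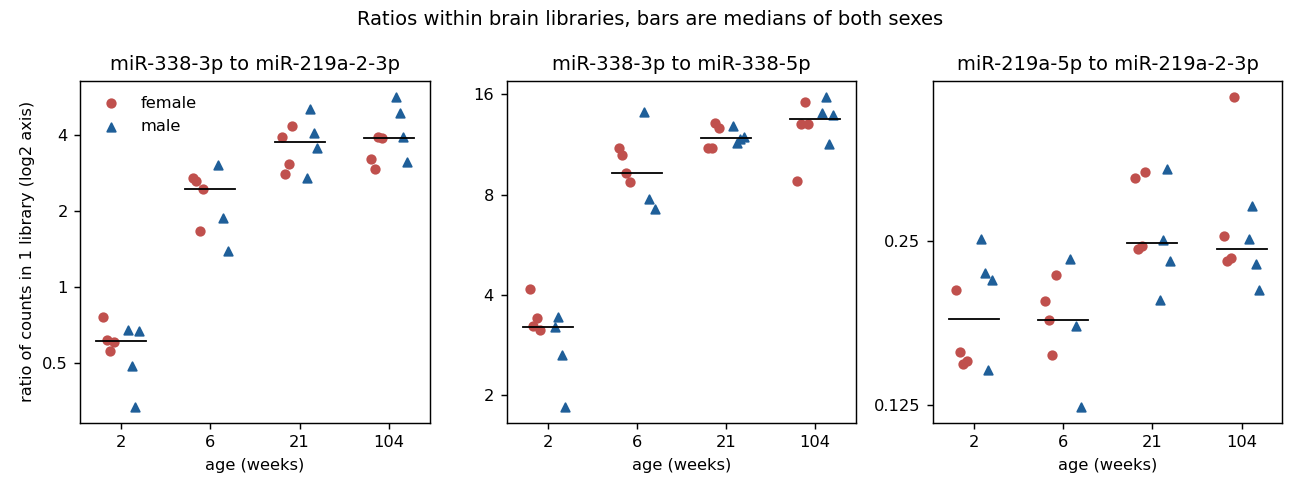
Ratios of counts within single brain libraries on log2 vertical axes against age in weeks, with females as circles, males as triangles and bars at the median of both sexes. The ratio of miR-338-3p to miR-219a-2-3p has medians of 0.612, 2.43, 3.74 and 3.89 at the 4 ages.

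Females and males differed at week 2. miR-338-3p was at 1205, 981, 954 and 922 CPM in the 4 females and at 536, 548, 368 and 486 CPM in the 4 males. miR-219a-2-3p was at 1585, 1581, 1704 and 1526 CPM in the females and at 795, 1122, 1098 and 727 CPM in the males. miR-338-5p was at 289, 305, 281 and 295 CPM in the females and at 168, 159.7, 139.5 and 265 CPM in the males. For these miRNAs all males lay below all females. miR-219a-5p was at 322, 248, 253 and 230.1 CPM in the females and at 201, 245, 159 and 154 CPM in the males, with 1 male above the lowest female, and miR-219a-1-3p overlapped between the sexes.

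In the comparison of sexes at week 2, which was added after the levels had been seen, 25 miRNAs were lower in males (4.06%) and 3 were higher. Of the members 4 were lower. The log2 difference, male minus female, was -1.19 for miR-338-3p (SE 0.17, edgeR adjusted p = 3.5e-05), -0.92 for miR-219a-2-3p (SE 0.15, edgeR adjusted p = 2.7e-04), -0.81 for miR-338-5p (SE 0.17, edgeR adjusted p = 0.00393) and -0.60 for miR-219a-5p (SE 0.15, edgeR adjusted p = 0.0180). With library size only, 15 miRNAs were lower in males and 19 higher, the median over all miRNAs moved from -0.01 to 0.09, and the first 3 members were still called. The call of miR-219a-5p was lost without any 1 of the replicate numbers, and that of miR-338-5p without replicate 2 (-0.62) or 3 (-0.69). At weeks 6, 21 and 104 no member was called, and the differences of miR-338-3p were -0.14, 0.09 and 0.28.

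The step from week 2 to week 6 was larger in males for 8 miRNAs (1.3%) and smaller for 0, by edgeR's test of the interaction, where 63 miRNAs passed at an unadjusted p under 0.05. Among them were miR-338-3p, with a difference between the steps of 1.05 (SE 0.24, edgeR adjusted p = 0.0190), and miR-219a-2-3p, with 0.99 (SE 0.22, edgeR adjusted p = 0.0179). The step of miR-338-3p was 2.01 in females and 3.06 in males. That of miR-219a-2-3p was 0.12 in females (edgeR adjusted p = 0.598) and 1.11 in males (edgeR adjusted p = 3.5e-06). The interactions of miR-338-5p, 0.73 (edgeR adjusted p = 0.248), and of miR-219a-5p, 0.56 (edgeR adjusted p = 0.297), were not called. Both interaction calls were lost with library size only, with all 320 samples and without any 1 of the replicate numbers. As a mean over the 4 ages, 0 miRNAs were higher and 2 lower in males by edgeR, with 56 at an unadjusted p under 0.05, and 0 members were called by edgeR or DESeq2. With the lane as a covariate miR-219a-5p was called lower in males in that mean, at -0.30 (adjusted p = 0.0254).

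The week 2 brains of females were sequenced in lanes 2, 4 and 6 and those of males in lanes 1, 3 and 7, so that within week 2 sex and lane cannot be told apart. With the lane as a covariate over all ages, the week 2 differences were -1.10 for miR-338-3p, -1.04 for miR-219a-2-3p and -0.93 for miR-338-5p, all called, and -0.54 for miR-219a-5p (adjusted p = 0.0639). Lists of other cell types were summed beside them. The neuron list was at 108515 to 129673 CPM in females and 123271 to 148414 CPM in males, the 6 miRNAs of the microglia and leukocyte list at 1626 to 1984 and 1119.6 to 1713 CPM, and both miRNAs of the endothelium list at 12585 to 16500.3 and 8603 to 14499 CPM. The red blood cell list of 4 was at 9654 to 15429.9 and 7957 to 16349.6 CPM, and the list of 5 for choroid plexus and ventricle lining at 7533 to 10041 and 7441 to 8352 CPM. All these ranges overlapped between the sexes, 0 listed miRNAs were without counts, and the part of these cells in the result was not tested. The summed level of a list of 17 miRNAs of the oligodendrocyte lineage went the other way and did not overlap. It was at 72935 to 80969 CPM in females and 91185 to 115760 CPM in males, most of it from abundant miRNAs other than the members. This list shares miR-9a-5p and miR-138-5p with the neuron list, miR-146a-5p with the microglia and leukocyte list and miR-204-5p with the choroid plexus list. The sum is therefore not of that lineage alone.

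Other miRNAs with a known role in the oligodendrocyte lineage were taken as that list of 17, of which miR-219a-5p, miR-219a-2-3p and miR-338-3p are part. From week 2 to week 6, 9 of 17 rose, 3 fell and 5 were not called, beside 23.5% of all 616 miRNAs up and 19.3% down. The median log2 fold change was 0.39, beside 0.00 over all 616 miRNAs. Without the 3 members, 6 of 14 rose and 3 fell, with a median of 0.23. After miR-338-3p the largest rise was that of miR-212-3p, at 1.39 (edgeR adjusted p = 3.0e-12). The largest falls were those of miR-19b-3p, at -1.28 (edgeR adjusted p = 1.0e-06), and miR-17-5p, at -1.23 (edgeR adjusted p = 2.7e-10), which belong to the miR-17-92 cluster, known for its part in the division of precursor cells. In the same step 6 of 12 miRNAs of the neuron list, which shares miR-9a-5p and miR-138-5p with the 17, rose and 2 fell, with a median of 0.46. At week 2, 4 of the 17 were lower in males and 0 higher, these being the 3 members and miR-212-3p at -1.06. Without the 3 members it was 1 of 14, beside 4.06% of all miRNAs lower in males. Of the 17, 1 rose and 4 fell from week 6 to week 21, beside 8.6% and 9.9% of all miRNAs. From week 21 to week 104, 0 rose and 1 fell, beside 0.487% and 2.44%.

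The miRNAs closest to each member in pattern were found by Pearson's r of log2(CPM + 1), as a description. Across the 31 brain libraries, which share the change from week 2 to later ages, miR-338-3p was closest to miR-29a-3p (r = 0.982), miR-29c-3p (r = 0.972) and miR-29b-3p (r = 0.971). Among miRNAs other than the members, miR-338-5p was closest to miR-194-5p (r = 0.799), and its r with miR-338-3p was also 0.799. miR-219a-5p was closest to miR-29c-5p (r = 0.809). By Spearman's rank correlation miR-338-5p was closest to miR-328a-3p (0.869) and miR-219a-5p to miR-136-5p (0.777), so these partners depend on the measure. miR-219a-2-3p had no close partner, with miR-181a-5p at r = 0.706 and miR-338-3p at r = 0.178. miR-219a-1-3p was closest to miR-92a-3p (r = 0.892) and opposite to miR-338-3p (r = -0.792).

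Across the 44 means of an organ at an age, miR-219a-2-3p was closest to miR-764-3p (r = 0.983), miR-9a-3p (r = 0.980) and miR-124-5p (r = 0.979). Among miRNAs other than the members, the highest values were 0.926 for miR-219a-5p, with miR-138-2-3p, 0.906 for miR-338-3p and 0.916 for miR-338-5p, both with miR-6325, and 0.792 for miR-219a-1-3p, with miR-98-3p. Between the arms of 1 hairpin, miR-338-3p and miR-338-5p, r was 0.952, above that of either with any other miRNA. These values rest largely on the gap between brain and the rest, since the means share their organ. By Spearman's rank correlation, 0 or 1 of the 3 closest miRNAs stayed the same for each member. Between miR-219a-5p and miR-219a-2-3p it was 0.0944, against a Pearson r of 0.885.

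Outside brain, week 2 was compared with week 21 in each organ with the same edgeR test. miR-338-3p rose in 7 of 10 organs. The median level went from 49.0 to 171 CPM in spleen (log2 fold change 2.03, SE 0.16, edgeR adjusted p = 2.5e-11), from 65.8 to 147 CPM in heart (1.74, SE 0.19, edgeR adjusted p = 7.4e-10), from 26.8 to 52.7 CPM in liver (1.49), from 60.9 to 140.1 CPM in lung (1.38), from 10.4 to 22.4 CPM in kidney (1.32), from 43.3 to 91.0 CPM in thymus (1.26) and from 36.1 to 53.4 CPM in uterus (0.86). The share of all miRNAs that rose was 18.0% in spleen, 27.3% in heart, 16.4% in liver, 24.0% in lung, 17.4% in kidney, 13.3% in thymus, 15.6% in uterus, 20.6% in adrenal gland, 21.4% in testis and 25.2% in skeletal muscle. Adrenal gland (0.05), testis (0.42) and skeletal muscle (0.02) were not called. The study's account of RNA quality names the week 2 spleens as the samples of low RNA integrity, and the part of this in the spleen values was not tested. It also describes testis libraries of adolescent and adult rats as made up mostly of piRNA reads, another class of small RNA. The part of this in the testis values was not tested.

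Scaling mattered for these organs. With library size only, the median over all miRNAs lay at -0.82 to -0.07 in the 10 organs instead of -0.22 to 0.06, the number of miRNAs that rose was 45 to 90 instead of 82 to 168, and in every organ more miRNAs fell than rose, up to 273 in skeletal muscle. miR-338-3p was still called upwards in 6 organs, uterus being lost at 0.40, and in skeletal muscle it was called downwards at -0.82. There the median level went from 252 to 163 CPM and then to 83.5 CPM at week 104.

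miR-338-5p rose in spleen (1.66), heart (1.33), liver (edgeR adjusted p = 0.0449) and lung (0.63). With library size only, and with the lane as a covariate, the liver (adjusted p = 0.216 and 0.837) and lung (0.259 and 0.164) calls were lost. It fell in skeletal muscle (-0.98), where 31.3% of all miRNAs fell, and in adrenal gland (-0.92), where 24.8% fell. In spleen 4 libraries were far above the rest. Female replicates 1 and 4 at week 21 had 180.5 and 108 CPM of miR-338-5p, and female replicate 3 and male replicate 3 at week 104 had 167 and 118 CPM. The remaining 27 spleen libraries were at 30.3 CPM or below. The spleen medians were 13.9 CPM at week 2 and 15.3 CPM at week 21, and without the 2 high week 21 libraries, an alternative chosen after seeing the data, the change was 0.40 (SE 0.47, edgeR adjusted p = 0.545) and not called. In these 4 libraries miR-338-3p was at 184, 110.3, 181 and 161 CPM, inside the range of the spleens of the same ages, and miR-124-3p, a neuronal miRNA, was at 3.71 to 31.9 CPM.

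miR-219a-5p rose in adrenal gland, from a median of 2.40 to 8.38 CPM (2.13, SE 0.23, edgeR adjusted p = 3.3e-09). It also rose in uterus, from 0.583 to 2.44 CPM (2.12), and in kidney, with a highest library of 3.35 CPM (0.94). The kidney rise was not called with library size only (0.66, edgeR adjusted p = 0.128). At week 2, 2 of 4 uterus libraries had over 3 counts. Their mean, 0.601 CPM, lay under the floor of 3 counts per library, 0.830 CPM, so the size of the uterus rise is uncertain. miR-219a-1-3p rose in adrenal gland (0.75, edgeR adjusted p = 4.3e-04), with medians of 12.2 CPM at week 2, 21.4 at week 6, 13.3 at week 21 and 13.5 at week 104; with library size only the change was 0.20 and not called. miR-219a-2-3p, at a few counts per library, rose in kidney, from a median of 1.97 to 4.32 CPM (1.48). It also rose in uterus, from 0.653 to 2.07 CPM (2.25), where 1 of 4 libraries at week 2 had over 3 counts. The week 2 uterus mean, 0.764 CPM, lay under the floor of 0.830 CPM, so the size of this rise is uncertain too. The highest week 21 uterus library, at 5.16 CPM, also held the most miR-124-3p of the uterus libraries, 56.5 CPM. The part of nervous tissue in this rise was not tested. miR-219a-2-3p fell in lung, where 26.0% of all miRNAs fell. At week 2 the mean was 2.11 CPM, the median 1.72 CPM and the highest library 6.58 CPM. At week 21 no library had over 3 counts, and the floor of 3 counts per library was 0.717 CPM on average. Against that floor the mean of miR-219a-2-3p fell at least 2.95-fold, a bound for the mean only. In testis the test also called it upwards (edgeR adjusted p = 0.0293), but no library at week 2 had over 3 counts and the mean at week 21, 2.32 CPM, lay under the floor of 2.45 CPM, so no fold is given; that call was lost with library size only and with the lane as a covariate. Heart, liver and spleen had no library with over 3 counts at these ages and give no fold.

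Outside brain, kidney held the most miR-219a-2-3p counts, 369 in all, with over 3 counts in 8 of 8 libraries at week 2, 3 at week 6, 8 at week 21 and 7 at week 104. The 5 highest libraries outside brain were female adrenal replicate 3 at week 6 (25.2 CPM), male skeletal muscle replicate 3 at week 21 (16.4 CPM), female skeletal muscle replicate 4 at week 6 (14.5 CPM), female adrenal replicate 2 at week 6 (12.3 CPM) and male testis replicate 1 at week 6 (11.2 CPM). In these libraries miR-124-3p was at 156, 109, 104, 61.4 and 60.7 CPM, while its medians over all libraries of these organs were 5.57 CPM in adrenal gland, 13.5 CPM in skeletal muscle and 13.8 CPM in testis, and 4 of the 5 were among the 10 libraries outside brain with the most miR-124-3p. Female kidney replicates 4, 2 and 3 at week 21 had 10.1, 6.38 and 5.80 CPM of miR-219a-2-3p with 1.96, 2.71 and 1.71 CPM of miR-124-3p. The part of nervous tissue in these levels was not tested.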

How the data were processed

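Small RNA-seq counts of 320 samples of Fischer 344 rats were used. The authors trimmed reads with fastp 0.23.2 and aligned them with Bowtie 1.3.1 to miRBase. They counted reads per miRNA without normalization and discarded rarely counted miRNAs, and the deposited values are these counts. The table also holds candidate miRNAs, among them rno_miR_chr20_23611, that the study predicted from its own reads and kept as organ-specific. Both samples that the study removed were left out. CPM were computed from column totals over the 616 miRNAs. Tests were made with edgeR 4.0.16 (quasi-likelihood, TMM) in R 4.3.3, with groups of sex and age per organ or organs per age, and exact permutation tests with SciPy 1.17.1, NumPy 2.4.6 and pandas 2.3.3. A group with no sample over 3 counts was taken to be at the floor. Alternatives were library size only, DESeq2 1.42.0, a filter keeping miRNAs whose mean count reached 10, no removal of samples, the lane (from the sample table of the study) as covariate, a replicate block, 1 sex only, other fold thresholds, and leaving out each replicate number. The labels do not say that a replicate number marks a rat, and p-values measure the spread between samples. The members, the lists and the named miRNAs (the members, the 3 closest in pattern, and the largest changes of the oligodendrocyte list) were chosen with earlier results of these data known. Named miRNAs outside this rule (miR-124-3p, miR-219b, miR-3065-5p) were chosen after their values were seen. The scripts were tested on simulated data.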

Additional observations from a re-analysis of the deposited data

Results flagged for a closer look

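In brain, 35 groups of 4 libraries (1 miRNA in 1 sex and age group) were tested for a library far from the other 3, and 3 were found; chance alone gives about 1 in 20. miR-219a-5p was at 588 CPM in female replicate 4 at week 104, against 324 to 344 CPM in the others, and at 351 CPM in male replicate 3 at week 21, against 219.4 to 238 CPM. miR-219a-1-3p was at 5.14 CPM in male replicate 2 at week 21, against 3.06 to 3.35 CPM.

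The sexes differed in the step from week 2 to week 6 by the interaction test. The log2 difference was 1.05 for miR-338-3p and 0.99 for miR-219a-2-3p. Both calls were lost with library size only, with all 320 samples and without any 1 of the replicate numbers. Within week 2 sex and lane cannot be told apart.

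Female spleen replicate 4 at week 104, which was left out of the comparisons, held 71.7 CPM of miR-219a-2-3p, against 0 to 1.99 CPM in the other 3. It held 981 CPM of miR-124-3p, against 4.05 to 31.9 CPM. The study removed this library because it grouped with uterus and not with spleen in clustering. The source of these values was not tested.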

How the results depend on the processing

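The rise of miR-338-3p and its ratio to miR-219a-2-3p from week 2 to week 6 kept their direction under all alternatives run, and the enrichment of miR-219a-5p and miR-219a-2-3p in brain kept its call. Under the alternatives 643 values kept direction and side of the threshold (for values and counts with no test, stayed close), 67 were no longer called, 4 became called, 32 changed sign and 48 moved otherwise; where they did not keep, the cause was not tested unless fewer samples or a stricter threshold is the alternative itself.

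From week 2 to week 6, library size only gave 0.30 for miR-219a-5p and 82 miRNAs up and 197 down; the lane covariate gave 0.48 for miR-219a-2-3p, -0.19 for miR-219a-1-3p, 61 up and 49 down; females alone gave 0.30, 0.12 and -0.44 for miR-219a-5p, miR-219a-2-3p and miR-219a-1-3p, not called. A 2-fold threshold lost miR-219a-5p (0.58), miR-219a-2-3p (0.61), miR-219a-1-3p (-0.58) and miR-338-5p (0.86), with 27 up and 54 down. Leaving out replicates gave -0.74 to -0.45 for miR-219a-1-3p.

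From week 6 to week 21, miR-219a-2-3p was not called with all 320 samples (-0.29), the lane covariate (-0.19), females (-0.31) or males (-0.41) alone or a 2-fold threshold (-0.36), nor miR-338-3p with library size only (0.19), the lane covariate (0.52), females (0.24) or males (0.48) alone or a 2-fold threshold (0.36). Leaving out replicates gave -0.43 to -0.28 and 0.28 to 0.54. Library size only called miR-219a-1-3p (-0.62) and turned miR-338-5p to -0.11, as females alone did (-0.030). Counts up and down were 30 and 118 with library size only, 0 and 1 with the lane covariate, 18 and 18 with a 2-fold threshold, 32 up with all 320 samples, and 20 to 41 and 30 to 41 without a replicate.

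From week 21 to week 104, DESeq2 called miR-338-3p (0.35) and 11 miRNAs up; miR-219a-1-3p turned to -0.029 with the lane covariate and -0.23 in males. Counts up were 9 with library size only, 5 with the replicate block, 0 with all 320 samples or a 2-fold threshold, and 0 to 7 without a replicate; counts down were 0 with all 320 samples, 7 with the lane covariate, 9 with a 2-fold threshold and 3 to 19 without a replicate.

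Between the sexes, the lane covariate called miR-219a-5p in the mean of ages (-0.30) and miR-338-5p in the step from week 2 to week 6 (0.88). In that step miR-219a-2-3p and miR-338-3p were not called with library size only (0.82 and 0.89), all 320 samples (0.83 and 0.92) or without a replicate (0.70 to 1.04 and 0.82 to 1.17). At week 2, miR-219a-5p was not called with library size only (-0.47), the lane covariate (-0.54) or without a replicate (-0.66 to -0.48). Without a replicate miR-338-5p ranged from -0.95 to -0.62, miR-219a-1-3p from -0.048 to 0.20 and the miRNAs lower in males from 10 to 15, against 15 with library size only. Differences near 0 changed sign: in the step from week 6 to week 21, miR-219a-2-3p with all 320 samples (0.048), miR-338-5p with the lane covariate (-0.018), and, without a replicate, miR-219a-5p (-0.33 to 0.023), miR-219a-2-3p (-0.31 to 0.0062) and miR-338-3p (-0.078 to 0.50); in the step from week 21 to week 104, miR-219a-2-3p with library size only (-0.041), DESeq2 (-0.032), the mean count filter (-0.029) and the replicate block (-0.0029), miR-338-5p with library size only (-0.041), DESeq2 (-0.013) and the mean count filter (-0.013), and, without a replicate, miR-219a-5p (-0.21 to 0.059), miR-219a-2-3p (-0.11 to 0.21) and miR-338-5p (-0.035 to 0.15).

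Against other organs, the smallest difference of miR-338-3p was -0.24 with the mean count filter and -0.038 to 0.50 without a replicate, and that of miR-338-5p was 1.89 with DESeq2, 1.51 with the mean count filter and 1.76 to 2.14 without a replicate. From week 2 to week 21 in other organs, library size only gave 1 organ down for miR-219a-5p, 2 for miR-219a-2-3p, 2 for miR-219a-1-3p and 1 for miR-338-3p, and 0 up for miR-219a-1-3p and 2 for miR-338-5p; the lane covariate gave 1 down for miR-219a-1-3p and 2 up for miR-338-5p; without a replicate 1 to 3 organs were up for miR-219a-2-3p and 2 to 4 for miR-338-5p.

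In 1 sex alone no ratio was called, the smallest unadjusted p that 4 samples against 4 allow being 0.0286. The ratio of miR-338-3p to miR-219a-2-3p changed by 1.87 in females and 1.93 in males from week 2 to week 6, by 0.58 and 0.91 from week 6 to week 21 (0.60 to 0.94 without a replicate) and by -0.0059 in females from week 21 to week 104 (-0.0035 to 0.18 without a replicate). That of miR-338-3p to miR-338-5p changed by 1.51 and 1.78, then by 0.28 and 0.37 (0.20 to 0.47 without a replicate). That of miR-219a-5p to miR-219a-2-3p changed by 0.18 in females (-0.10 to 0.014 without a replicate), then by 0.62 and 0.54 (0.50 to 0.69), and then by -0.084 to 0.072 without a replicate.

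Brain libraries with the same replicate number at different ages deviated together with a mean r of 0.0917 (21 of 45 pairs over 0.1, lowest -0.54). The mean r for other numbers was -0.0233. Libraries of different ages come from different rats, so these values cannot show whether a number marks a rat. Between brain and another organ of the same sex and age, the mean r was 0.0255 over 278 pairs with the same number. It was -0.00875 for other numbers, and pairing by rat was left undecided. With the replicate block miR-338-3p rose by 2.52 from week 2 to week 6, 145 miRNAs rose and 125 fell, and the ratio of miR-338-3p to miR-338-5p from week 6 to week 21 (0.32, adjusted p = 0.05) was no longer called; no other call on a member in brain changed. The number of miRNAs enriched in brain was 46 with the block.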
